A study of Mus musculus with 8 samples.

Results

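Brain endothelial and blood-brain barrier genes are those made by the cells that line the blood vessels of the brain, or that give these cells their barrier. The 38 genes were chosen by name and not by a measured value, though with earlier results of these data known. They were arranged in 6 roles: 6 genes of cell junctions and adhesion, 9 receptors and their regulators, 8 transport genes, 6 surface markers, 4 transcription factors, and 5 genes of secreted proteins and nitric oxide synthesis. All 38 were present among the 40659 gene identifiers of the count table, and 38 of 38 were among the 17252 genes kept by the filter on low counts. The lowest count of any of them in any library was 56, for Foxq1.

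The data are polyA-RNA sequencing libraries of whole hippocampi from 8 male wild-type C57BL/6JRj mice, 1 library per mouse. All 8 mice received a stereotactic injection of a recombinant adeno-associated virus (rAAV) into the dorsal and ventral hippocampus at postnatal week 7 to 8. In the 4 hp708 mice the virus carried a hairpin that yields the microRNA miR-708-5p, and in the 4 hpCTL mice a control hairpin. Tissue was taken 4 weeks after surgery. The sample labels give an age of 12 to 13 weeks, somewhat later than the week of surgery and these 4 weeks give. The hairpin stands under the human synapsin promoter, which is active in neurons, so endothelial cells are not the cells the virus was built to act in. Because whole tissue was sequenced, fewer endothelial cells and less RNA per endothelial cell cannot be told apart in any value given here. RNA of the same genes from other cells of the tissue is counted as well and cannot be separated.

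The total count per library lay between 22606824 and 28462428. Mir708, the precursor gene of the microRNA, had 0 counts in each library, which allows up to 3 counts per library, so these libraries hold no check of the overexpressed microRNA. Neuronal markers were high throughout, and markers of the choroid plexus, the tissue that secretes cerebrospinal fluid, differed widely between hippocampi, with a mean log2 CPM (counts scaled to a common library size) of 1.19 to 5.44 in hpCTL and 2.19 to 6.20 in hp708. The library labelled hp708 replicate 1 comes from an animal that the source data of the study list as hpCTL. It was kept as labelled, and the main counts are given with and without it.

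Endothelial cells of the brain are sealed to each other by tight junctions, take up little by vesicles and lack fenestrae. Nutrients therefore cross through dedicated carriers, while efflux pumps return many drugs and metabolites to the blood. Wnt ligands made by neural cells, together with norrin, keep up this state through receptors on the endothelial cell, and pericytes and the endfeet of astrocytes surround the vessel.

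MicroRNAs act on messenger RNAs that match their seed, bases 2 to 8 of the mature sequence. The mature sequence from RefSeq (GRCm38.p6) is shown first, with the seed in capitals, and is followed by every seed match printed for the 38 genes, because these are the places where the injected microRNA could pair with their transcripts. The 3'UTR of the canonical transcript of each gene (GENCODE 39, GRCm39) was searched on the transcript strand for AGCTCCTA (8mer), AGCTCCT (7mer-m8) and GCTCCTA (7mer-A1), each match counted once as its longest type. Capitals mark the match, and all sequences read 5' to 3' on the transcript strand.
mmu-miR-708-5p: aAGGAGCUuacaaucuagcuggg
Slc2a1, 8mer, chr4:118995774-118995803, plus strand: cactcccccccccccccccgccAGCTCCTA
Cdh5, 7mer-m8, chr8:104870133-104870162, plus strand: cagggaggaaggagactgtccgcAGCTCCT
Ocln, 7mer-m8, chr13:100633746-100633775, minus strand: atcgagtaggaaagactgtttggAGCTCCT
Esam, 7mer-A1, chr9:37449170-37449199, plus strand: acattctagacctccagtcctttGCTCCTA
Adgrf5, 7mer-A1, chr17:43766395-43766424, plus strand: aagcaaaggccatgtttatttttGCTCCTA
Slc16a1, 7mer-A1, chr3:104563732-104563761, plus strand: gttatcactaaactgtcacctttGCTCCTA
Ly6a, 7mer-A1, chr15:74866096-74866125, minus strand: ggggccaagagtgttgccatgagGCTCCTA

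Apcdd1 also holds a match, of the type 7mer-m8 at 2 places, whose sequence is not shown. Thus 8 of the 38 genes (21.1%) held a match, against 3151 of 14789 tested genes with a canonical 3'UTR (21.3%). The fitted log2 fold change of the 8 genes with a match had a median of -0.02, with 5 of 8 below 0. In the 30 genes without a match the median was -0.01, with 16 of 30 below 0. The direction of the 8 genes depended on the fit: 4 of 8 were below 0 with a median of 0.0070 without surrogate variables, and 3 of 8 with a median of 0.04 without hp708 replicate 1, where 15 of the 30 genes without a match were below 0. A match is a description of the letters only and does not show a site in use.

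The question of the comparison was whether hippocampi that overexpress miR-708-5p differ in these genes from hippocampi with the control hairpin. No gene of the 38 was called. In the quasi-likelihood fit of edgeR that held 3 surrogate variables, 0 of 38 passed a false discovery rate (FDR, after Benjamini and Hochberg over all tested genes) of 0.05, against 1 of 17252 tested genes (0.0058%). Surrogate variables are terms estimated from the counts that stand for unknown sources of variation. The lowest FDR among the 38 was 0.449, for Ptprb. At an unadjusted p-value below 0.05 there were 2 of 38 genes (5.26%), Ptprb higher and Ly6a lower in hp708, against 7.7% of all tested genes, of which 2.82% were higher and 4.87% lower. Without surrogate variables it was 0 of 38, against 1.81% of tested genes (0.858% higher, 0.951% lower), and 0 genes of the whole table (0%) passed an FDR of 0.05.

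The directions were nearly balanced in the edgeR fits with all 8 libraries. With 3 surrogate variables 21 of the 38 genes had a log2 fold change (hp708 over hpCTL) below 0, or 55.3%, against 53.2% of all tested genes, and the median was -0.01 in the 38 genes and -0.01 in all tested genes. Without surrogate variables 19 of 38 were below 0, against 52.9% of tested genes. In DESeq2 without surrogate variables it was 15 of 38, where the share of tested genes was not counted. The number also moved when a library was left out, as given below. The log2 fold changes ranged from -0.36 for Ly6a to 0.24 for Ptprb, with a median standard error of 0.087. For 37 of 38 genes the 95% interval of the fold change lay within 1.5-fold in either direction, the exception being Ly6a, and for 38 of 38 it lay within 2-fold. Without surrogate variables these numbers were 34 and 38. The hp708 values did not lie entirely outside the hpCTL values for any of the 38 genes, against 1.51% of tested genes. The mean log2 CPM over the 38 genes was 4.74, 4.79, 4.84 and 4.95 in hpCTL replicates 1 to 4 and 4.87, 4.95, 4.75 and 4.81 in hp708 replicates 1 to 4, so that each group held values near both ends of the range.

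**Figure D1:**
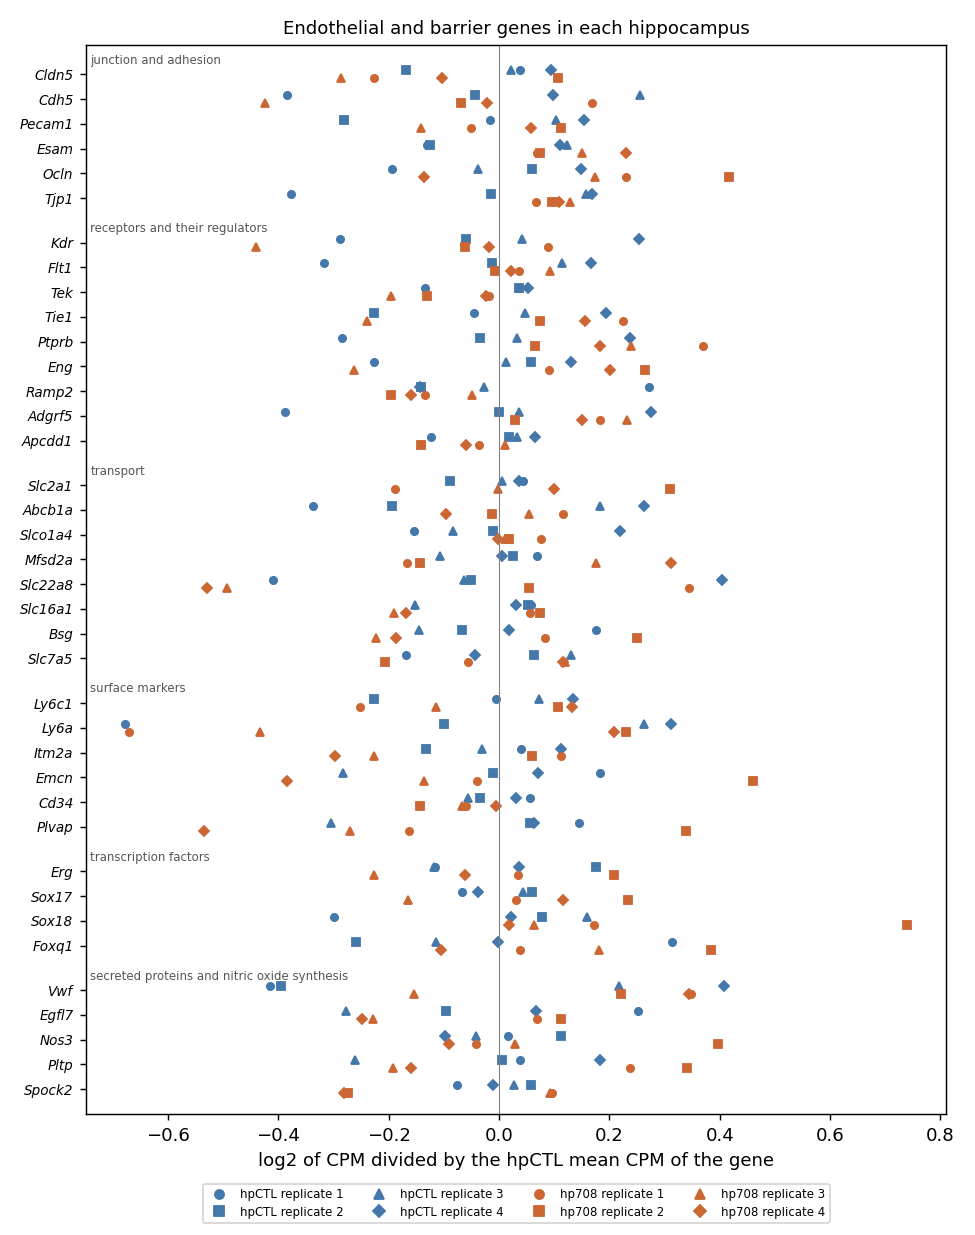
Level of each of the 38 genes in each hippocampus, as log2 of its CPM divided by the hpCTL mean of the gene (x axis), with genes in rows by role. Blue symbols are the 4 hpCTL and orange symbols the 4 hp708 libraries, with 1 symbol shape per replicate number. Blue and orange overlap in every row, and Ly6a, Sox18 and Slc22a8 spread the most.

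**Figure D2:**
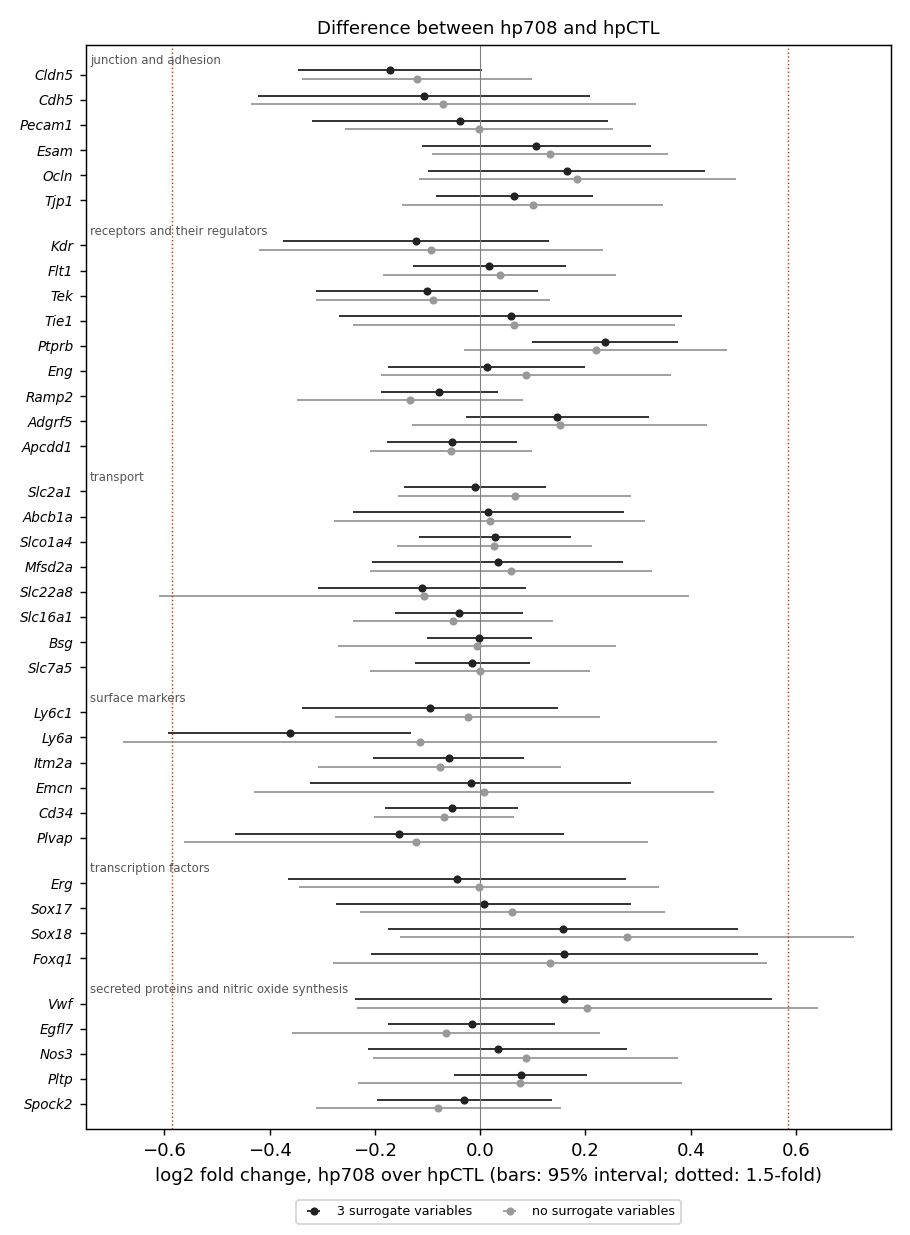
Log2 fold change of each gene between hp708 and hpCTL (x axis), with 95% intervals, in the fit with 3 surrogate variables (black) and without (grey). Dotted lines mark 1.5-fold. With 3 surrogate variables the black bars of Ptprb and Ly6a are the ones that leave out 0, and the bar of Ly6a is the one that passes a dotted line.

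Leaving out the library labelled hp708 replicate 1 gave 0 of 38 genes at an FDR below 0.05, against 0.321% of the 17425 genes then tested. At an unadjusted p below 0.05 there were 3 of 38 (7.89%), against 12.2% of tested genes, of which 5.44% were higher and 6.72% lower. They were Slc2a1 (log2 fold change 0.18, FDR 0.258), Slc22a8 (-0.35, FDR 0.262) and Spock2 (-0.22, FDR 0.172) in edgeR's quasi-likelihood test. Ptprb (0.12, FDR 0.679) and Ly6a (0.01, FDR 0.964) were not among them. Of the 38 genes 18 were below 0, against 51.3% of tested genes.

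Among the 6 junction and adhesion genes 3 had a log2 fold change below 0, and 0 had an unadjusted p below 0.05. Cldn5 encodes claudin 5, the main strand protein of tight junctions between brain endothelial cells. It lies on chromosome 16 from 18595597 to 18597012 (GRCm39, plus strand). In hpCTL the values were 42.0, 36.4, 41.5 and 43.6 CPM, against 34.9, 44.0, 33.5 and 38.0 in hp708. The hp708 library with 44.0 was the highest of all 8, while the other 3 hp708 libraries lay within or below the hpCTL range. The log2 fold change was -0.17 (SE 0.074, unadjusted p = 0.0530, FDR 0.656, edgeR), and without hp708 replicate 1 it was -0.02. In edgeR its unadjusted p fell below 0.05 without the filter on low counts (FDR 0.842) and with surrogate variables from normalized counts (FDR 0.337).

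Cdh5 encodes VE-cadherin, the adhesion protein of endothelial adherens junctions. The 4 hpCTL libraries had 11.6, 14.6, 18.0 and 16.1 CPM, and the 4 hp708 libraries 16.96, 14.4, 11.3 and 14.9, for a log2 fold change of -0.11 (SE 0.134, FDR 0.889, edgeR). Both groups held a library near 11 to 12 and the ranges overlapped over most of their length. Pecam1 (CD31), an adhesion molecule of endothelial cell contacts, had nearly equal means of 18.0 ± 2.32 CPM in hpCTL and 18.0 ± 1.40 in hp708 (SD, n = 4 each). Esam, an endothelial cell adhesion molecule, was at 15.2 ± 1.49 and 16.7 ± 0.893 CPM. Occludin (Ocln), a membrane protein of tight junctions, was at 13.3 ± 1.33 and 15.2 ± 2.34 CPM, with a log2 fold change of 0.16 and an FDR of 0.778 in edgeR's quasi-likelihood test. Tjp1 encodes ZO-1, the scaffold that ties junction proteins to actin and is also made by other brain cells. It was at 109.1 ± 18.0 CPM in hpCTL and 117.0 ± 2.08 in hp708, and hpCTL replicate 1 with 84.0 CPM stood below the other 7 libraries.

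Among the 9 receptors and their regulators 4 were below 0 and 1, Ptprb, had an unadjusted p below 0.05. Kdr encodes VEGF receptor 2, through which VEGF drives endothelial growth and permeability. Library by library it came to 14.5, 16.9, 18.2 and 21.0 CPM with the control hairpin, and to 18.8, 16.9, 13.0 and 17.4 with hp708, and the log2 fold change was -0.12 (SE 0.107, FDR 0.835, edgeR). The lowest hp708 value lay under the hpCTL range and the other 3 within it. Flt1 encodes VEGF receptor 1, which binds VEGF and limits its action on Kdr. In hpCTL the values were 51.6, 63.8, 69.6 and 72.2 CPM, against 65.9, 64.0, 68.6 and 65.3 in hp708, with a log2 fold change of 0.02 (SE 0.061, FDR 0.961, edgeR). The 4 hp708 values lay close together inside the hpCTL range.

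Ptprb encodes VE-PTP, a phosphatase that restrains Tek and steadies VE-cadherin at cell contacts. The gene lies on chromosome 10 from 116111428 to 116225440 (plus strand). The 4 hpCTL libraries had 30.3, 36.1, 37.8 and 43.6 CPM, and the 4 hp708 libraries 47.7, 38.7, 43.6 and 41.9. All 4 hp708 libraries were above 3 of the 4 hpCTL libraries, and hpCTL replicate 4 lay among the hp708 values. The log2 fold change was 0.24 (SE 0.059, unadjusted p = 0.00478, FDR 0.449, edgeR), and without surrogate variables 0.22 (FDR 0.999). Without hpCTL replicate 1 it was 0.21 with and 0.14 without surrogate variables.

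Tek (TIE2), the receptor of the angiopoietins, was at 13.5 ± 0.798 CPM in hpCTL and 12.7 ± 0.753 in hp708 (SD, n = 4 each), and its partner Tie1 at 12.4 ± 1.496 and 12.9 ± 1.74. Endoglin (Eng), a co-receptor for ligands of the TGF-beta family, was at 30.9 ± 3.20 and 32.8 ± 5.02 CPM. Ramp2, the partner that makes the calcitonin receptor-like receptor respond to adrenomedullin, was at 71.3 ± 10.2 and 65.0 ± 2.86 CPM. In contrast to the long transcripts of this role, it was highest in hpCTL replicate 1, with 86.1 CPM. Adgrf5, an adhesion G protein-coupled receptor, was at 31.9 ± 5.85 and 35.4 ± 2.08 CPM, with a log2 fold change of 0.15 (FDR 0.711, edgeR). Apcdd1, an inhibitor of Wnt signalling, was at 37.0 ± 2.09 and 35.6 ± 1.56 CPM and was among the least variable of the 38 genes.

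Of the 8 transport genes 5 were below 0 and 0 had an unadjusted p below 0.05. Slc2a1 encodes GLUT1, which carries glucose across the barrier and whose 3'UTR holds the 8mer shown above. Library by library it came to 94.4, 86.1, 91.9 and 94.0 CPM with the control hairpin, and to 80.3, 113.6, 91.5 and 98.1 with hp708. The hp708 group held both the lowest and the highest library. The log2 fold change was -0.01 (SE 0.057, FDR 0.981, edgeR), and it was 0.07 without surrogate variables. Abcb1a encodes P-glycoprotein, the efflux pump for many drugs. In hpCTL the values were 25.7, 28.4, 36.9 and 39.02 CPM, against 35.2, 32.3, 33.8 and 30.4 in hp708, with a log2 fold change of 0.02 (SE 0.110, FDR 0.984, edgeR). All 4 hp708 values lay inside the hpCTL range. Its paralogue Abcb1b lay between 3.61 and 5.75 CPM.

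Slco1a4, a carrier of organic anions, was at 55.6 ± 6.45 CPM in hpCTL and 56.6 ± 1.38 in hp708 (SD, n = 4 each). Mfsd2a imports lipids that carry docosahexaenoic acid and holds back vesicle traffic across the endothelial cell. It was at 20.8 ± 1.06 and 21.7 ± 3.58 CPM, with hp708 replicates 3 and 4 above and hp708 replicates 1 and 2 below every hpCTL library. Slc16a1 (MCT1), which carries lactate and ketone bodies, was at 48.4 ± 3.25 and 46.7 ± 4.60 CPM. Bsg (CD147), the chaperone that brings Slc16a1 to the membrane, was at 389.1 ± 37.7 and 387.5 ± 61.3 CPM, and Slc7a5 (LAT1), which carries large neutral amino acids, at 69.2 ± 6.20 and 69.2 ± 7.33.

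Slc22a8 encodes OAT3, an exchanger that clears organic anions from brain to blood and that is also made by the choroid plexus. Its values by library were picked out because of their spread. The 4 hpCTL libraries had 15.9, 20.3, 20.1 and 27.9 CPM, and the 4 hp708 libraries 26.7, 21.9, 15.0 and 14.6, a 1.91-fold range. The highest and the lowest values of the 2 groups lay close to each other. The log2 fold change was -0.11 (SE 0.084, FDR 0.803, edgeR), with a 95% interval from -0.31 to 0.09 that widened to -0.61 to 0.40 without surrogate variables. Markers of the fibroblasts of the meninges, the covering of the brain, had a mean log2 CPM of 3.55, 3.64, 3.97 and 4.34 in hpCTL replicates 1 to 4 and 4.65, 4.38, 3.02 and 3.497 in hp708 replicates 1 to 4. Markers of the choroid plexus epithelium had a mean log2 CPM of 1.19, 5.12, 2.48 and 5.44 in hpCTL and 5.89, 6.20, 2.19 and 2.57 in hp708. The 3 libraries with the highest Slc22a8, hpCTL replicate 4 and hp708 replicates 1 and 2, were the 3 highest in both lists. Of the 8 meningeal markers 4 were below 0 and 0 had an unadjusted p below 0.05 in the comparison of the groups, and of the 7 choroid plexus markers 1 was below 0 and 0 had that p. Without hp708 replicate 1, where Slc22a8 was at -0.35, 5 of the 8 meningeal markers (3 lower) and 2 of the 7 choroid plexus markers (both lower) had that p. The part of either tissue in the values of Slc22a8 was not tested.

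The 6 surface markers were all below 0, their median log2 fold change being -0.08. Of these, 1 gene, Ly6a, had an unadjusted p below 0.05. Without surrogate variables 5 of 6 were below 0, and without hp708 replicate 1 it was 3 of 6. Ly6c1 encodes a GPI-anchored surface protein that marks brain endothelium in the mouse. Library by library it came to 28.4, 24.4, 29.99 and 31.3 CPM with the control hairpin, and to 23.9, 30.7, 26.3 and 31.2 with hp708, with a log2 fold change of -0.10 (SE 0.103, FDR 0.869, edgeR). The 2 groups covered nearly the same range. Its close paralogue Ly6c2, whose reads may not all be separable from those of Ly6c1, had 6.35, 16.7, 16.7 and 14.5 CPM in hpCTL and 6.49, 13.5, 7.97 and 12.0 in hp708, with a log2 fold change of -0.71 and an FDR of 0.268 in edgeR's quasi-likelihood test, against -0.44 without surrogate variables and -0.41 without hp708 replicate 1. It was low in hpCTL replicate 1 and hp708 replicates 1 and 3, while Ly6c1 in hpCTL replicate 1 lay among the other libraries.

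Ly6a encodes Sca-1, a surface protein of endothelial and haematopoietic cells whose gene responds to interferon. It lies on chromosome 15 from 74863840 to 74869880 (minus strand). In hpCTL the values were 30.3, 45.2, 58.1 and 60.1 CPM, against 30.4, 56.8, 35.8 and 55.9 in hp708, a 1.98-fold range. Low libraries near 30 to 36 CPM occurred in both groups, 1 in hpCTL and 2 in hp708, and the other 5 lay between 45.2 and 60.1. The log2 fold change was -0.36 (SE 0.098, unadjusted p = 0.00742, FDR 0.4997, edgeR), with a 95% interval from -0.59 to -0.13. Without surrogate variables it was -0.11 (FDR 0.999), and without hp708 replicate 1 it was 0.01. Its seed match is the 7mer-A1 shown above.

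Genes of the interferon response were low in the same libraries as Ly6a. The mean log2 CPM of 8 such genes was 3.32, 4.36, 4.48 and 4.63 in hpCTL replicates 1 to 4 and 3.11, 4.49, 3.41 and 4.44 in hp708 replicates 1 to 4. The 3 libraries lowest in this list, hpCTL replicate 1 and hp708 replicates 1 and 3, were the 3 lowest in Ly6a. They were also the 3 lowest in the 6 microglia markers, with a mean log2 CPM of 6.46, 6.22 and 6.39 against 6.62 to 6.89 in the other 5 libraries. With 3 surrogate variables 8 of the 8 genes were below 0 and 8 of 8 had an unadjusted p below 0.05, with 0 at an FDR below 0.05. The median log2 fold change was -0.71 in that fit and -0.24 without surrogate variables, where 0 of 8 had an unadjusted p below 0.05. Without hp708 replicate 1 it was -0.10, with 7 of 8 below 0 and 3 of 8 at that p, all lower. Among the 8 genes Ifit3, an antiviral effector, had a log2 fold change of -0.59 (FDR 0.221, edgeR) and Oasl2, a sensor of foreign RNA, -0.80 (FDR 0.268, edgeR). Irf7, the transcription factor that amplifies the response, was at -0.74 (FDR 0.278, edgeR). These values were, without hp708 replicate 1, -0.19 for Ifit3, -0.28 for Oasl2 and -0.09 for Irf7. The part of this response or of microglia in the values of Ly6a was not tested.

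**Figure D3:**
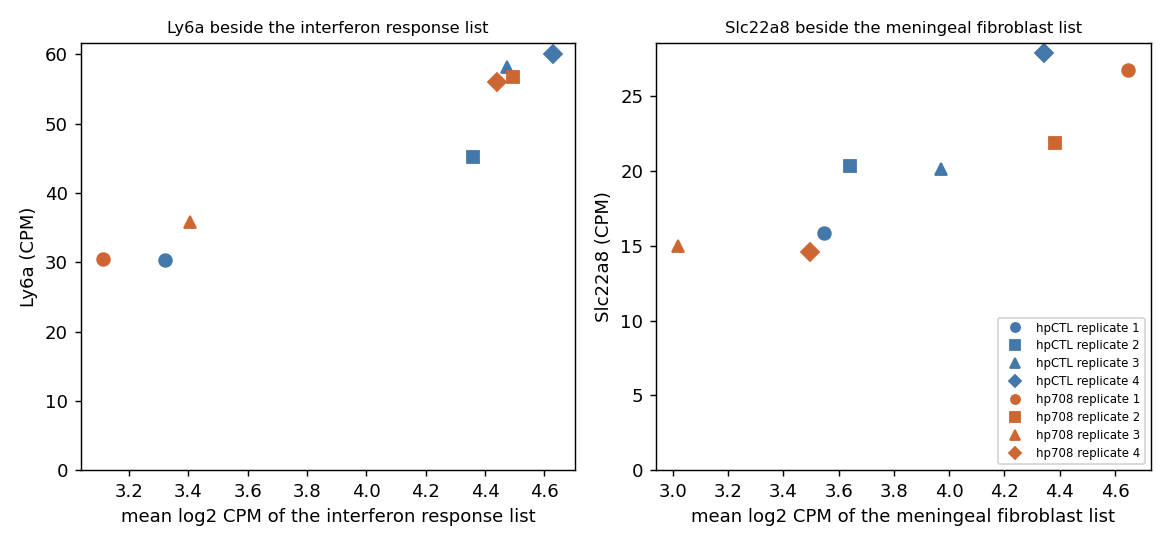
CPM of Ly6a against the mean log2 CPM of 8 interferon response genes (left) and CPM of Slc22a8 against that of 8 markers of meningeal fibroblasts (right), 1 point per hippocampus, blue for hpCTL and orange for hp708. On the left hpCTL replicate 1 and hp708 replicates 1 and 3 lie apart at 30.3, 30.4 and 35.8 CPM, and on the right both groups reach from the low to the high end.

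Itm2a, a membrane protein of brain endothelial cells, was at 46.6 ± 3.34 CPM in hpCTL and 44.2 ± 6.20 in hp708 (SD, n = 4 each). Endomucin (Emcn), a sialomucin of capillaries and veins, was at 6.04 ± 0.800 and 6.08 ± 1.57 CPM. Cd34, another sialomucin of vessels and blood progenitors, was at 45.9 ± 1.68 and 43.8 ± 1.69 CPM and was the least variable of the 38 genes. Plvap forms the diaphragms of fenestrae and is scarce where the barrier is closed. It was at 6.94 ± 0.904 CPM in hpCTL and 6.38 ± 1.70 in hp708, with a log2 fold change of -0.15 (FDR 0.832, edgeR) and its highest value, 8.78 CPM, in hp708 replicate 2.

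Of the 4 transcription factors 1 was below 0, and 0 had an unadjusted p below 0.05. Erg keeps up the expression of endothelial genes in mature vessels. The 4 hpCTL libraries had 3.82, 4.68, 3.81 and 4.24 CPM, and the 4 hp708 libraries 4.24, 4.78, 3.54 and 3.97, with a log2 fold change of -0.04 (SE 0.137, FDR 0.958, edgeR). Sox17 acts in arterial identity and downstream of Wnt in the barrier. Library by library it came to 5.93, 6.47, 6.40 and 6.05 CPM with the control hairpin, and to 6.34, 7.30, 5.54 and 6.73 with hp708, with a log2 fold change of 0.01 (SE 0.119, FDR 0.991, edgeR). For both factors the hpCTL values lay inside the hp708 range. Sox18, a close relative of Sox17, was at 5.18 ± 0.680 and 6.29 ± 1.596 CPM. Its 2.05-fold range was the widest of the 38 genes, with a highest value of 8.65 CPM in hp708 replicate 2. Within hpCTL the SD of its log2 CPM was 0.197, against 0.456 for Ly6a. Foxq1, a forkhead factor enriched in brain endothelium, was at 2.93 ± 0.512 and 3.22 ± 0.471 CPM.

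Of the 5 genes of secreted proteins and nitric oxide synthesis 2 were below 0, and 0 had an unadjusted p below 0.05. Vwf encodes von Willebrand factor, which binds platelets. In hpCTL the values were 27.1, 27.4, 41.9 and 47.8 CPM, against 45.9, 42.0, 32.4 and 45.8 in hp708, with a log2 fold change of 0.16 (SE 0.168, FDR 0.866, edgeR). The low values of hpCTL replicates 1 and 2 lay below all hp708 values, and the highest value was also an hpCTL library. Egfl7, a secreted factor of growing vessels, had 36.1, 28.4, 25.0 and 31.8 CPM in hpCTL and 31.8, 32.8, 25.9 and 25.5 in hp708, with a log2 fold change of -0.02 (SE 0.067, FDR 0.967, edgeR). Its hp708 values all lay inside the hpCTL range. Nos3, the endothelial nitric oxide synthase, was at 12.5 ± 0.782 CPM in hpCTL and 13.2 ± 2.15 in hp708 (SD, n = 4 each). Pltp, a phospholipid transfer protein, was at 83.3 ± 10.4 and 87.8 ± 16.5 CPM. Spock2, a proteoglycan of the extracellular matrix that neurons also make, was at 830.4 ± 33.1 and 785.8 ± 116 CPM, and hp708 replicates 2 and 4 with 687 and 684 CPM stood below the other 6 libraries.

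Levels of different genes were compared per kb of their canonical transcript in hpCTL. They are levels of the whole tissue and not of endothelial cells alone. Bsg was the highest with 215 ± 20.9 CPM per kb (SD, n = 4), followed by Spock2 with 149 ± 5.94, Pltp with 45.8 ± 5.70 and Ramp2 with 34.3 ± 4.88. The next genes, Cldn5 with 28.9 ± 2.21, Itm2a with 26.6 ± 1.90 and Ly6c1 with 26.2 ± 2.76 CPM per kb, did not differ beyond their spread. Egfl7 and Slc2a1, at 20.8 ± 3.25 and 20.6 ± 0.861, could not be ordered either. At the low end stood Sox17 with 1.98 ± 0.0849, Ocln with 1.97 ± 0.197, Erg with 1.30 ± 0.130 and Foxq1 with 0.605 ± 0.106 CPM per kb. Claudin 5 was far above occludin among the junction genes, and GLUT1 above the efflux pump Abcb1a, at 6.44 ± 1.27, among the transport genes.

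**Figure D4:**
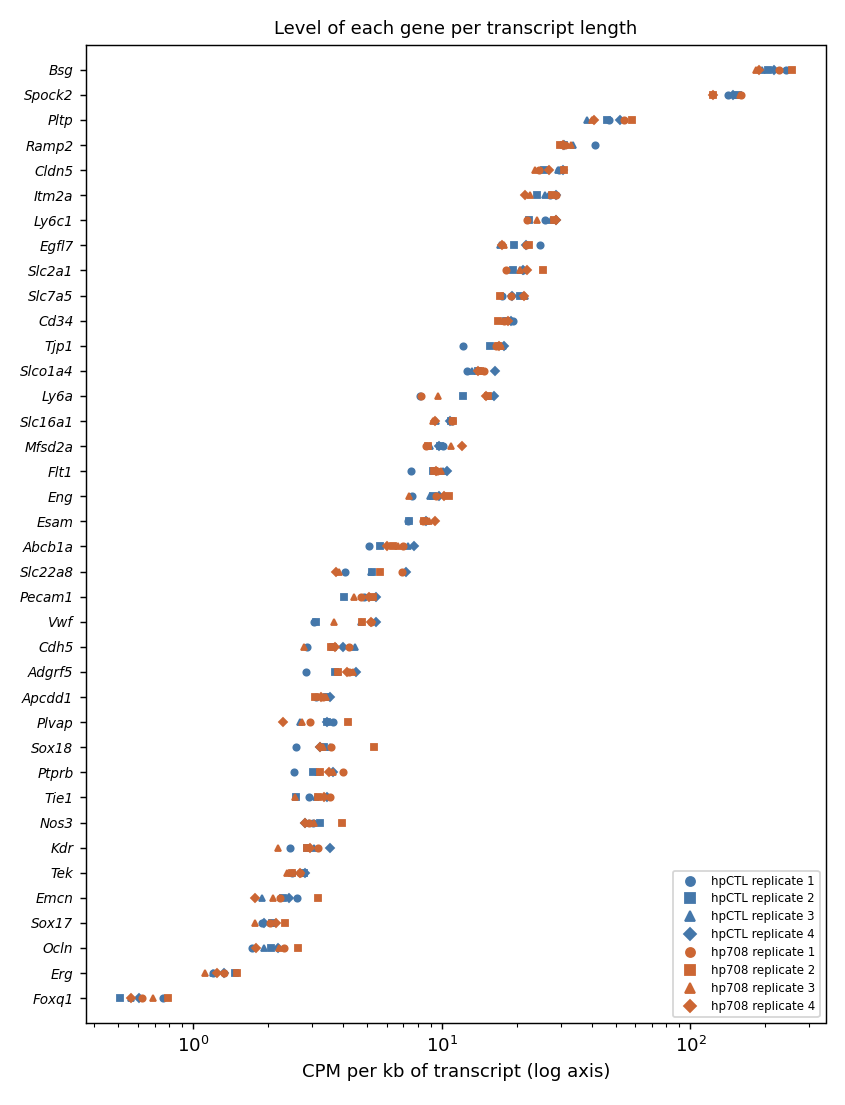
CPM per kb of canonical transcript of each of the 38 genes (x axis, log scale), ordered by the hpCTL mean, with 1 symbol per library (blue hpCTL, orange hp708). The genes run from Bsg with 215 to Foxq1 with 0.605 CPM per kb, and within each gene the 2 groups overlap.

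The libraries differed in how long and short transcripts were counted. Over 14977 protein-coding tested genes, the Spearman correlation of transcript length with the deviation of a gene from its mean log2 CPM of the 8 libraries was -0.46 in hpCTL replicate 1, -0.26 in hp708 replicate 2, 0.33 in hp708 replicate 3 and between 0.10 and 0.24 in the other 5. These values describe single libraries and genes are not independent replicates. In hpCTL replicate 1 the median deviation was 0.26 for transcripts up to 1500 bases and -0.16 for those over 5000. The 38 genes showed the same split there, with a median of -0.33 for the 10 genes over 5 kb and 0.05 for the 8 genes under 2 kb, of which Sox18 (-0.41) and Esam (-0.19) lay below 0. Of the 11 genes that were lowest in hpCTL replicate 1, 7 were over 5 kb: Ptprb, Vwf, Adgrf5, Tjp1, Flt1, Ocln and Abcb1a. Over all tested genes 21.1% were lowest in that library.

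Without hpCTL replicate 1 the log2 fold changes of these long genes, with and without surrogate variables, were 0.09 and 0.04 for Adgrf5, 0.012 and -0.0024 for Tjp1, -0.03 and -0.05 for Flt1, 0.06 and 0.13 for Ocln, -0.017 and -0.075 for Abcb1a, 0.29 and 0.09 for Vwf, and 0.21 and 0.14 for Ptprb. The library hp708 replicate 3 was lowest for 10 of the 38 genes (26.3%), against 13.9% of tested genes, and highest for 0. The libraries hpCTL replicate 4 and hp708 replicate 2 were highest for 14 of the 38 genes each, against 7.92% and 15.5% of tested genes. Each group thus held 1 library that was often high.

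**Figure D5:**
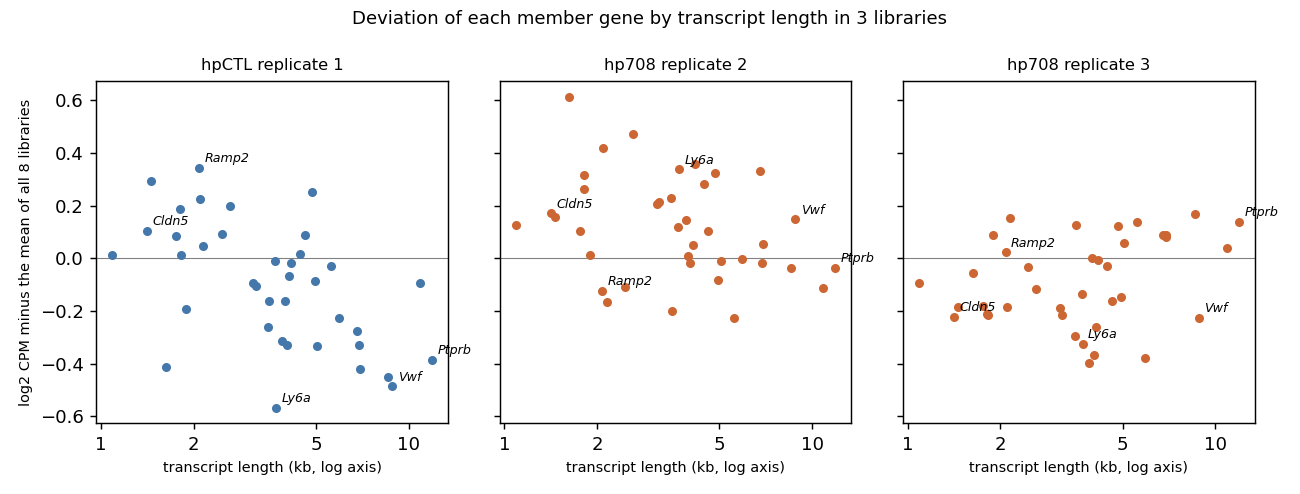
Deviation of each of the 38 genes from its mean log2 CPM of the 8 libraries (y axis) against its transcript length (x axis, log scale) in hpCTL replicate 1, hp708 replicate 2 and hp708 replicate 3. In hpCTL replicate 1 long transcripts such as Ptprb and Vwf lie below 0, while short ones lie on both sides of it, Cldn5 and Egfl7 above and Sox18 and Esam below.

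Genes of the same pathways were described with 10 lists, which hold Plvap of the 38 genes besides other genes. Of their 100 tested genes 14 (14%) had an unadjusted p below 0.05 with 3 surrogate variables, against 7.7% of all tested genes, and 3 without surrogate variables. None passed an FDR of 0.05 in either of these edgeR fits. Without hp708 replicate 1, 16 of the 100 had an unadjusted p below 0.05, against 12.2% of tested genes, and 1, Efnb2, passed an FDR of 0.05. Among the 19 genes of Wnt and norrin signalling 1 was higher and 2 lower at an unadjusted p below 0.05, with a median of -0.00. Fzd4, the receptor of norrin, had a log2 fold change of 0.29 (FDR 0.613, edgeR), Tcf7, a transcription factor of the pathway, -0.35 (FDR 0.594, edgeR), and Wnt7b, a ligand made by neural cells, -0.14 (FDR 0.646, edgeR). Over the whole list 10 of 19 genes were below 0. With hp708 replicate 1 left out, Fzd4 was at 0.08, Tcf7 at -0.22 and Wnt7b at -0.25, and 1 gene of the list was higher and 2 were lower at that p.

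Of 10 genes of VEGF and angiopoietin signalling, the ligands and partners of Kdr, Flt1 and Tek, 1 was lower at an unadjusted p below 0.05. This was Vegfb, a ligand of Flt1, with 50.6, 44.3, 39.4 and 46.0 CPM in hpCTL and 44.1, 37.3, 37.2 and 32.8 in hp708. Its log2 fold change was -0.18 with surrogate variables (FDR 0.4997, edgeR) and -0.25 without. The hp708 values were mostly lower and the groups overlapped. When hp708 replicate 1 was left out it was -0.30 (FDR 0.127, edgeR) and again the 1 gene of the list at that p. Vegfa, the main ligand of Kdr, was at 0.03 (FDR 0.961, edgeR).

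Of 8 Notch genes, which act between cells of growing vessels, 7 were above 0 and Notch1 had an unadjusted p below 0.05 (log2 fold change 0.13, FDR 0.594, edgeR). After hp708 replicate 1 was dropped Notch1 was at 0.11 and 6 of 8 were above 0. The 1 gene with an unadjusted p below 0.05 was then Notch4 (0.35, FDR 0.344, edgeR) and no longer Notch1. Of 16 other barrier transporters 3 were higher and 2 lower at that p. The thiamine transporter Slc19a3 had 4.68, 4.68, 4.39 and 4.47 CPM in hpCTL and 3.26, 4.13, 2.81 and 3.22 in hp708, so that its groups did not overlap, as in 1.51% of all tested genes. Its log2 fold change was -0.49 (FDR 0.497, edgeR) with and -0.44 without surrogate variables, and -0.41 without hp708 replicate 1, where 2 transporters were higher and 3 lower at that p. Lrp8, a receptor of reelin and apolipoprotein E, was at 0.19 (FDR 0.455, edgeR), and the transferrin receptor Tfrc at 0.19 (FDR 0.511, edgeR). Of 13 other junction genes 1 was higher at that p, the adaptor Cgnl1 (0.26, FDR 0.595, edgeR), which was -0.09 without hp708 replicate 1, where 1 gene of the list was lower at that p.

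In the lists of vessel types and states no gene passed an FDR of 0.05 in edgeR's test with all 8 libraries. Of 9 arterial genes tested, 1 of which, Stmn2, is also on the list of neuronal markers, 8 were below 0 and 0 had an unadjusted p below 0.05, and Efnb2, the ephrin of arteries, was at -0.26 (FDR 0.678, edgeR). Leaving out hp708 replicate 1 put Efnb2 at -0.66 (FDR 0.0276, edgeR), so that its call depended on the library of doubted label. Efnb2 was the 1 gene of this list at that p in that fit. Its mean in hpCTL was 42.6 CPM, against 1.40 for Bmx, 2.18 for Gja4, 28.0 for Unc5b and 292 for Stmn2. Which cells of the tissue made its RNA was not tested. Of 8 venous genes tested 2 were lower at that p, Icam1 and Tmsb10. The median of the venous list was -0.19 with 3 surrogate variables, -0.016 without them and -0.0032 without hp708 replicate 1. At that p 2 of the 8 were lower and 1 was higher without hp708 replicate 1. Tmsb10, an actin-binding peptide, was at -0.33 with and without that library. Like those of Slc19a3, its groups did not overlap, as in 1.51% of all tested genes. They had 42.98 to 49.2 CPM in hpCTL and 26.6 to 41.2 in hp708. Of 8 genes of activated endothelium tested 8 were below 0 with a median of -0.36, and 2 were lower at that p, the chemokine Cxcl10 (-0.93, FDR 0.294, edgeR) and the leukocyte adhesion molecule Icam1 (-0.44, FDR 0.592, edgeR). Without surrogate variables 6 of the 8 were below 0, the median was -0.13 and 0 had that p. Without hp708 replicate 1, 6 of the 8 were below 0, the median was -0.04, Cxcl10 was at -0.22, Icam1 at -0.0078, and 0 were lower and 1 higher at that p. Cxcl10 is also a gene of the interferon response, and at 7.39 CPM in hpCTL replicate 1, 6.63 in hp708 replicate 1 and 8.27 in hp708 replicate 3 it was low in the libraries that were low in Ly6a. Selectin genes of inflamed vessels, Sele and Selp, did not pass the filter on low counts. Of 6 genes of angiogenesis and fenestration and 8 of transcytosis tested, 0 had an unadjusted p below 0.05, including Cav1 (0.04, FDR 0.959, edgeR), the coat protein of caveolae. In the fit without hp708 replicate 1 Cav1 was at 0.22 (FDR 0.405, edgeR) and was the 1 gene of these lists at that p.

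Markers of the cells around the vessel were set beside these genes. Of 16 other endothelial markers 8 were below 0 and 0 had an unadjusted p below 0.05, with a median of 0.01 and a mean log2 CPM of 2.52 to 2.81 in hpCTL and 2.62 to 2.78 in hp708. Of the 16, without hp708 replicate 1, 10 were below 0, the median was -0.06 and 2 had that p, 1 in each direction. Of 8 pericyte markers, among them Pdgfrb and Rgs5, 4 were below 0, or 5 without hp708 replicate 1, and 0 had that p in either fit. With all 8 libraries the same count was 0 of 6 for smooth muscle, 0 of 7 for choroid plexus epithelium, 0 of 5 for ependyma, 0 of 6 for oligodendrocytes, 0 of 8 for neurons and 0 of 5 for red blood cells. All 5 red blood cell markers were below 0, with a median of -0.33, or -0.35 without surrogate variables, where 1 of 5 had that p, and -0.48 without hp708 replicate 1. The counts of 0 in these 6 lists depended on hp708 replicate 1. Without it 6 of 6 oligodendrocyte markers and 4 of 5 ependyma markers were higher at that p, as were 2 of 8 neuronal markers, and 2 of 7 choroid plexus, 1 of 6 smooth muscle and 1 of 5 red blood cell markers were lower. Of 8 astrocyte markers 1 was higher at that p, the glutamate transporter Slc1a2 (0.16, FDR 0.449, edgeR). Slc1a2 was at 0.06 without hp708 replicate 1, and 2 other astrocyte markers were higher and 1 lower at that p. Of 6 microglia markers 6 were below 0 and 4 were lower at that p with 3 surrogate variables, among them C1qa (-0.53, FDR 0.456, edgeR), and 0 without surrogate variables. The direction turned without hp708 replicate 1, with 1 of 6 below 0, a median of 0.04, C1qa at 0.07 and 0 at that p. No marker of these lists was at 0 in any library, and their part in the values of the 38 genes was not tested.

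Some of the 38 genes share exons with a neighbour, and since the strand setting of the counting is not stated in the sources used here, their reads cannot be separated from it. In the GENCODE 39 annotation an antisense gene covers 26.7% of the exon length of Nos3, 25.8% of Sox18, 21.7% of Plvap, 21.2% of Pltp and 19.0% of Sox17. Vps25 on the same strand covers 28.5% of the exon length of Ramp2.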

How the data were processed

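PolyA-RNA of 8 hippocampi was analysed. The authors aligned the reads with STAR 2.7.8a to GRCm39, counted them per GENCODE 26 gene with featureCounts 1.6.4 and deposited the raw counts, without normalization, with 1 column per animal. Strand and multi-mapping settings are not given in the sources used here. Samples were grouped by their labels.

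Genes kept by filterByExpr were tested with the quasi-likelihood test of edgeR 4.0.16 (R 4.3.3, fitted as in edgeR 3), after TMM scaling, with 3 surrogate variables that svaseq (sva 3.50.0) estimated on the filtered counts, and Benjamini-Hochberg adjustment over all 17252 genes. The methods of the study name the likelihood ratio test and a figure legend the quasi-likelihood model. A prior count of 2 went into log2 CPM, and the standard error of a fold change was derived from its test statistic. DESeq2 1.42.0 without surrogate variables, other normalization, no filter, a replicate block and leaving out each library were alternatives. Of the 40659 identifiers 39641 were named from GENCODE 39. Within groups, chi-square per degree of freedom between libraries was 7.86 to 49.4, so none was a copy of another. The fits were also run on simulated counts that held no hidden differences between libraries. That run cannot show how the surrogate variables act in these data.

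The 38 genes and all lists were chosen with earlier results of these data known. Values in every library are given for the first 2 genes of each role and for each with an unadjusted p below 0.05, other genes of a list are named by the lowest p or as defining markers, and Mir708, Ly6c2 and Abcb1b are named in addition. The values by library of Slc22a8, Vegfb, Slc19a3 and Cxcl10, and the naming of Selp, were chosen after the values were seen. So were the range of Tmsb10 and the levels set beside that of Efnb2.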

Additional observations from a re-analysis of the deposited data

Results flagged for a closer look

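In 134 groups of 4 libraries, 6 values stood apart from the other 3 by Dixon's criterion, and chance gives about 1 in 20, or 6.7. Tek in hpCTL replicate 1 was at 12.3 CPM, against 13.8 to 14.0 in the other hpCTL libraries. Slc16a1 in hpCTL replicate 3 was at 43.6 CPM, against 49.5 to 50.4. The mean log2 CPM of the 6 surface markers was 4.61 in hpCTL replicate 4, against 4.41 to 4.44, and 4.66 in hp708 replicate 2, against 4.28 to 4.34. That of the 5 genes of secreted proteins and nitric oxide synthesis was 6.08 in hpCTL replicate 4, against 5.90 to 5.93. That of the genes of angiogenesis and fenestration was 2.27 in hpCTL replicate 2, against 2.43 to 2.44.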

How the results depend on the processing

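The count of 0 of 38 genes at an FDR below 0.05 held in the 7 alternatives and in 16 fits that left out 1 library each. At an unadjusted p below 0.05 the 2 genes (Ptprb and Ly6a, against 7.7% of tested genes) became 0 without surrogate variables (1.81%), 0 in DESeq2, which was run without surrogate variables (1.84%), and 0 to 4 when a library was left out. The share of tested genes was 12.2% without hp708 replicate 1. It is not given for the other libraries left out, so the range is no result about the 38 genes. Without the filter the genes at that p were 3, with Cldn5 (5.87%), and with surrogate variables from normalized counts they were Ptprb and Cldn5 (13.3%). The number of genes below 0 ranged from 12 to 23 over the libraries left out. The share of tested genes below 0 was 51.3% without hp708 replicate 1. It was not counted for the other libraries left out, so the range cannot be read against it. The number of non-overlapping genes ranged from 0 to 2 (Tek and Apcdd1 without hpCTL replicate 1, Ptprb and Slco1a4 without hpCTL replicate 4, Ocln and Cd34 without hp708 replicate 4), against 2.90% to 6.17% of tested genes. Of the pathway genes, 14 with an unadjusted p below 0.05 became 3 without surrogate variables, 9 in the likelihood ratio test (6.01% of tested genes), 4 in DESeq2 without surrogate variables, 15 without the filter, 18 with surrogate variables from normalized counts, and 2 to 17 when a library was left out. This last range too stands without the share of tested genes in each fit and is no result about the pathway genes. The causes were not tested. Surrogate variables from normalized counts were added after seeing the data.

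The replicate numbers did not pair the animals, with correlations of deviations between -0.0411 and 0.0177. With the replicate block in place of the surrogate variables, 0 of the 38 genes and 5 pathway genes had an unadjusted p below 0.05, against 1.58% of tested genes, and Pecam1 (0.00305) and Slc2a1 (0.056) changed sign.

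Of 266 fold changes of single genes in the alternatives 251 kept their sign. The others lay near 0. Without surrogate variables Slc2a1 was 0.066 and Emcn 0.0075. In DESeq2 without surrogate variables Slc2a1 was 0.072, Emcn 0.012, Pecam1 0.00319, Bsg 0.000256, Slc7a5 0.0067 and Erg 0.0054. With its size factors in edgeR Bsg was 0.0057. Without the filter Slc7a5 was 0.031 and Nos3 -0.00995, and with surrogate variables from normalized counts Slc2a1 was 0.0496 and Slc7a5 0.017.

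When a library was left out 503 of 608 kept their sign. The ranges of those that changed were -0.075 to 0.12 for Abcb1a, -0.10 to 0.064 for Bsg, -0.18 to 0.034 for Cdh5, -0.15 to 0.044 for Egfl7, -0.18 to 0.12 for Emcn, -0.045 to 0.19 for Eng, -0.099 to 0.069 for Erg, -0.051 to 0.097 for Flt1, -0.14 to 0.0093 for Itm2a, -0.17 to 0.0093 for Kdr, -0.52 to 0.038 for Ly6a, -0.18 to 0.12 for Ly6c1, -0.073 to 0.14 for Mfsd2a, -0.069 to 0.14 for Nos3, -0.13 to 0.089 for Pecam1, -0.024 to 0.16 for Pltp, -0.35 to 0.058 for Slc22a8, -0.057 to 0.18 for Slc2a1, -0.050 to 0.062 for Slc7a5, -0.017 to 0.11 for Slco1a4, -0.028 to 0.13 for Sox17, -0.22 to 0.023 for Spock2, -0.010 to 0.18 for Tie1 and -0.0024 to 0.16 for Tjp1.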
